A study of Mus musculus with 12 samples.

Results

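The genes followed here encode the protein that binds FK506 in T cells (Fkbp1a), the phosphatase calcineurin (Ppp3ca, Ppp3cb, Ppp3cc and Ppp3r1), 2 of its inhibitors (Rcan1 and Cabin1) and the transcription factors it activates (Nfatc1, Nfatc2 and Nfatc3). They were chosen by name as the target pathway of FK506, and earlier results of these data were known when they were picked. They are 10 of the 45777 genes in the table. All 10 had a count above 0 in at least 3 libraries and were among the 23585 genes tested.

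CD4+ T cells were isolated from the spleens of wild type Balb/c mice aged 7 weeks, as the labels give them, and all 12 cultures received 0.5 ug/mL anti-CD3 for 3 days. Anti-CD3 was the only agent in the first group, the second also held Lactobacillus acidophilus (L. acidophilus), a lactic acid bacterium that the study's methods describe as inactivated by heat, the third FK506 (tacrolimus), and the fourth both agents (the combination). Each group had 3 libraries of polyA RNA, there was no group without anti-CD3, and the labels give no dose of either agent. The study's text instead names B6 mice. Nothing states that libraries of a group came from separate animals or cultures, so the p-values measure only the spread between these libraries, which may be technical. The chi-square per degree of freedom between the counts of 2 libraries of a group was 4.61 for replicates 2 and 3 of the combination and 9.57 for those of L. acidophilus, against 47.7 to 205 for every other pair, so these pairs were closer than the rest but differed by more than sampling noise.

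Calcineurin is a calcium- and calmodulin-dependent phosphatase made of a catalytic and a regulatory subunit. Engagement of the T-cell receptor raises cytosolic calcium, and active calcineurin removes phosphates from NFAT factors, which then enter the nucleus and help to induce cytokine genes. FK506 bound to its receptor blocks this phosphatase, so it acts on the activity of the pathway's proteins, which transcript levels do not measure.

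The libraries held 45416397 to 64658165 counts, and replicate 1 was the deepest in every group. Among the anti-CD3 libraries, replicate 2 had the highest total FPKM (fragments scaled by transcript length and library size) of all 12 libraries, and several results are given with and without it. The T-cell markers Cd4 and Cd3e were high in every library, at 130.8 to 255.7 and 136.2 to 306.3 FPKM, and Cd8a measured 0.103 to 0.282 FPKM with anti-CD3 alone, 0.0993 to 0.196 with L. acidophilus, 0.641 to 2.18 under FK506 and 0.195 to 0.534 with the combination. Of the CD8 markers Cd8a and Cd8b1, Cd8a was higher with FK506 (log2 fold change 2.38 ± 0.56 SE, adjusted p = 0.0123). To set beside the marker counts that follow, 10.2% of all genes tested were higher and 8.81% lower with FK506 at an adjusted p under 0.05. With the combination the shares were 21.5% and 21.8%. B-cell markers moved with the groups. Their summed level over 17 genes was 109 to 188 FPKM with anti-CD3 alone, 874 to 1798 with FK506, 792 to 934 with the combination and 86.8 to 181 with L. acidophilus, and 16 of the 17 were higher with FK506 and 12 with the combination than with anti-CD3 alone. Of 10 myeloid markers, the summed level was 0.104 to 0.178 FPKM with anti-CD3 alone (Csf1r, C1qa, C1qb, Fcgr1 and S100a8 at 0), 0.257 to 1.03 with L. acidophilus (C1qa and S100a8 at 0), 1.19 to 7.75 with FK506 and 21.0 to 47.5 with the combination (S100a8 at 0 in both), and 6 of 9 tested were higher with FK506 and 7 with the combination. The summed level of 10 T-cell markers was 1765 to 2502 FPKM with anti-CD3 alone, 1849 to 2076 with L. acidophilus, 1731 to 1965 under FK506 and 2424 to 2846 with the combination, and 3 were lower with FK506 (Cd5, Cd6 and Lck) and 3 higher with the combination (Cd3e, Cd4 and Trac). That of 4 NK-cell markers was 0.444 to 0.803 FPKM with anti-CD3 alone, 0.861 to 1.30 with L. acidophilus, 2.92 to 8.16 under FK506 and 6.14 to 14.3 with the combination, with Klra8 at 0 throughout, and 2 of 3 tested were higher with FK506 and with the combination. Without anti-CD3 replicate 2, 14 and 11 B-cell and 4 and 7 myeloid markers were higher with FK506 and with the combination, 1 and 2 NK-cell markers were, 1 T-cell marker was higher and 2 lower with FK506 (Lck no longer passing), and 5 were higher with the combination. In bulk RNA, a change in the number of cells of a type cannot be told apart from a change in RNA per cell, and the part of these cells in the changes below was not tested.

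Promoter sequences from RefSeq (build GRCm38.p6) were held for 7 of the 10 genes, as 10 windows of the 250 bases upstream of a transcript start. Of these windows, 4 are printed: those of the FK506 receptor gene and the NFAT factor genes Nfatc2 and Nfatc3, and the internal start of Rcan1. The short Rcan1 transcript is a well-known NFAT target, though Rcan1 passed in no comparison here. The windows printed are, where a gene had 2, those with more matches of the letters below. They are written 5′ to 3′ on the gene's strand, and capitals mark the letters GGAAA, the core of NFAT sites, on either strand (TTTCC on the strand shown). The Rcan1 window is chr16:92400079-92400328 on the minus strand, that of Fkbp1a chr2:151542233-151542482 on the plus strand, that of Nfatc3 chr8:106058568-106058817 on the plus strand, and that of Nfatc2 chr2:168601658-168601907 on the minus strand.
Rcan1 internal start: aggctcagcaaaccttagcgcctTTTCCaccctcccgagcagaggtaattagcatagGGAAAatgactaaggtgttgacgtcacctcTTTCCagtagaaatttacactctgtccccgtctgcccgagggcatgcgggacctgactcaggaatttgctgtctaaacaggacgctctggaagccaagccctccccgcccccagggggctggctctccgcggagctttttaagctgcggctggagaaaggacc
Fkbp1a: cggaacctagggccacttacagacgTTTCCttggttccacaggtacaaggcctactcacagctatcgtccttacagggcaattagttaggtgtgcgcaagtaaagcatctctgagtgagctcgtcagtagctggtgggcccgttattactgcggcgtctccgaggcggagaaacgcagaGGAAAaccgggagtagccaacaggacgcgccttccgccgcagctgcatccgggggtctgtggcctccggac
Nfatc3: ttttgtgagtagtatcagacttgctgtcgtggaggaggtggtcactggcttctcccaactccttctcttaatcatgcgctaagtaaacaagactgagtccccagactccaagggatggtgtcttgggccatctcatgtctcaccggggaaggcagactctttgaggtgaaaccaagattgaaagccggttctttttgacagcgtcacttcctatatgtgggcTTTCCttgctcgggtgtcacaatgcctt
Nfatc2: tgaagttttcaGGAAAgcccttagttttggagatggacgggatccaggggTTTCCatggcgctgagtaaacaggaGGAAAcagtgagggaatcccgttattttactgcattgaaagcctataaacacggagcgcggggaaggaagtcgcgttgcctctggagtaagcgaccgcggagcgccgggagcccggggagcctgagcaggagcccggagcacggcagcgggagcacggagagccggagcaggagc
The printed Rcan1 and Nfatc2 windows each held 3 matches, that of Fkbp1a 2 and that of Nfatc3 1. Of the windows not printed, that of Ppp3cb also held 3, the second window of Nfatc2 held 1, and the second of Nfatc3, the upstream Rcan1 window and those of Cabin1 and Ppp3r1 held 0. Of all 32817 windows of this length, 55.6% held at least 1 match and 6.38% held 3 or more. The letters TGANTCA, the site of AP-1, a partner of NFAT, were found on either strand in 6.75% of all windows and among these 4 only in that of Rcan1. A match is a description of the letters and not a measured site.

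With the combination, Nfatc1 and Nfatc3 transcripts rose and Fkbp1a fell, and of the calcineurin subunits only Ppp3cc passed the test in any comparison. Against anti-CD3 alone, 2 genes were higher (Nfatc1 and Nfatc3) and 3 lower (Fkbp1a, Ppp3cc and Cabin1) at a Benjamini-Hochberg adjusted p under 0.05 by edgeR's quasi-likelihood test, where 21.5% of all genes tested were higher and 21.8% lower. With FK506, Nfatc1 and Nfatc3 were higher and Fkbp1a lower, that is 2 and 1 of 10, where 10.2% of all genes were higher and 8.81% lower. L. acidophilus moved none of the 10 past the threshold, where 0.178% of all genes were higher and 0.0509% lower. At an unadjusted p under 0.05 edgeR had 4 of the 10 in this comparison and 14.8% of all genes, and DESeq2 called 2, Nfatc1 and Nfatc3, both higher, and 1112 of all genes. With the replicate number as a block, 101 of all genes passed in this comparison, against 54 without it, and again none of the 10, and without anti-CD3 replicate 2 there were 5 and 0.

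The combination was also set against each single agent. In the combination against FK506, Nfatc3 was higher and Ppp3cc and Nfatc2 lower, 1 and 2 of 10 where 8.18% of all genes were higher and 10.9% lower. The 3 calls became 5 without anti-CD3 replicate 2 and 0 without FK506 replicate 3, combination replicate 2 or combination replicate 3. Of all genes, 4508 passed with all libraries, and 2343, 2786 and 2833 without the last 3 named in turn. With each library left out in turn, at most 5523 passed. In the combination against L. acidophilus, Nfatc1 and Nfatc3 were higher and Fkbp1a lower, 2 and 1 of 10 where 16.6% were higher and 17% lower. These comparisons share groups, so their values are given side by side and none supports another. The median log2 fold change of the 10 genes against anti-CD3 alone was 0.01 with L. acidophilus, 0.12 with FK506 and -0.10 with the combination, and that of all genes was -0.01, 0.00 and 0.02. Without scaling factors the median of all genes moved by 0.205 in the combination against anti-CD3 alone and by 0.131 against L. acidophilus. The share of higher genes among all that passed then went from 53.7% to 65.7% with FK506, from 49.7% to 62.9% with the combination, from 42.8% to 54.5% in the combination against FK506 and from 49.4% to 60.5% against L. acidophilus. Of the 10 genes, 3 were then higher and 0 lower with FK506, 3 and 1 with the combination, 2 and 1 in the combination against FK506 and 3 and 1 against L. acidophilus. Beside these, 3006 of all 23585 genes tested were higher and 1569 lower with FK506, and 6380 and 3756 with the combination. In the combination against FK506 there were 2471 and 2064, and against L. acidophilus 4742 and 3101.

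**Figure D1:**
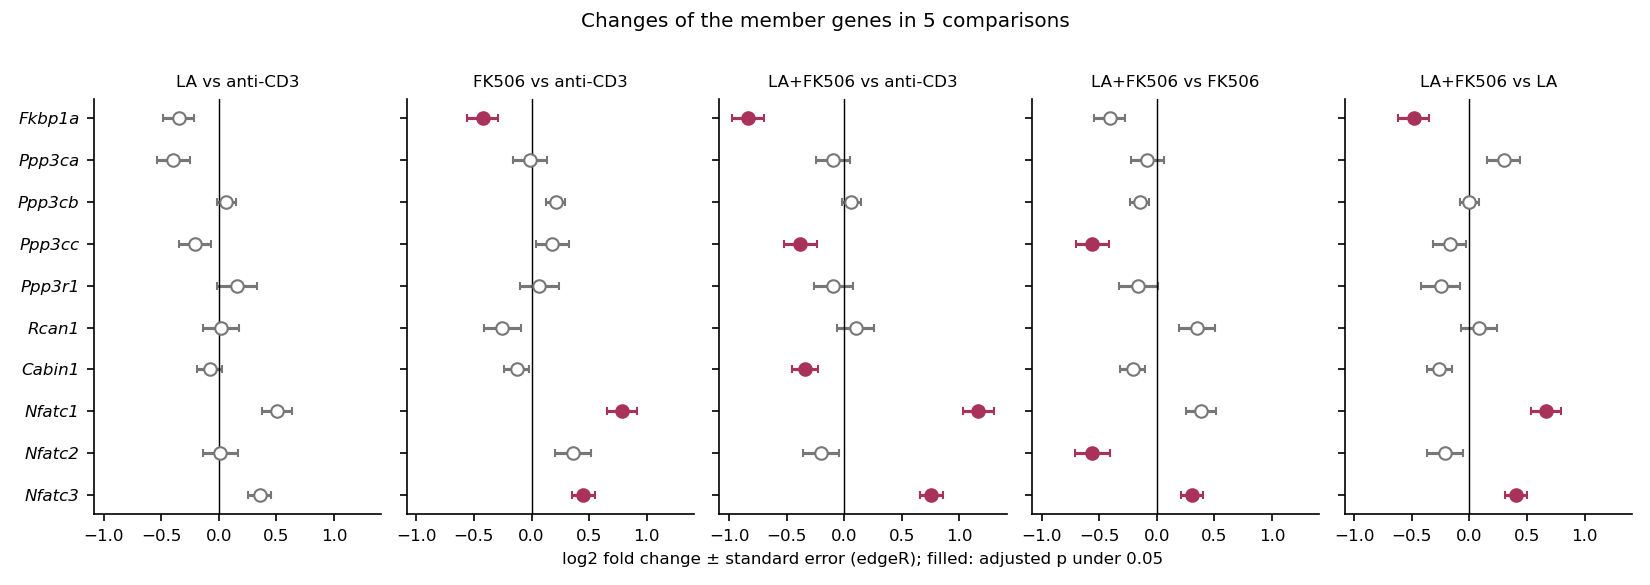
Each gene's log2 fold change (horizontal axis, edgeR) with its standard error in 5 comparisons, filled where the adjusted p was under 0.05. Nfatc1 and Nfatc3 lie to the right and Fkbp1a to the left of 0 in each panel, and of the calcineurin subunits only Ppp3cc has filled points.

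Fkbp1a (chr2:151542483-151561691) encodes the small peptidyl-prolyl isomerase that forms the inhibitory complex with FK506. It was the most abundant of the 10 genes, with a mean FPKM higher than that of 98.6% of the genes tested. Its level was 157.8, 227.4 and 196.7 FPKM in the 3 libraries with anti-CD3 alone, 160.1, 156.0 and 164.2 with L. acidophilus, 142.8, 145.7 and 176.7 with FK506, and 122.5, 121.6 and 128.5 with the combination. The combination libraries were the lowest of the 12 and overlapped no other group, whereas FK506 and L. acidophilus each overlapped anti-CD3 alone. The group means were 194 ± 34.9, 160 ± 4.10, 155 ± 18.8 and 124 ± 3.77 FPKM (SD, n = 3), and the spread was widest with anti-CD3 alone, where replicate 2 was the highest library.

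With the combination, Fkbp1a was 1.78-fold lower than with anti-CD3 alone (log2 fold change -0.83 ± 0.14 SE, adjusted p = 0.000464), and this call held in all 22 refits (other scalings, tools, filters and libraries), with log2 fold changes from -0.96 to -0.62, though the change is under 2-fold. Without anti-CD3 replicate 2 it was -0.68 (adjusted p = 0.000974). With FK506 the change was -0.42 ± 0.14 (adjusted p = 0.0486), just inside the threshold. That call was lost in 17 of 22 refits, among them when any library except anti-CD3 replicate 1 or FK506 replicate 3 was left out (adjusted p from 0.0565 to 0.162, and a change of -0.27 without anti-CD3 replicate 2), and also without scaling factors (-0.31, adjusted p = 0.108). Against L. acidophilus the combination was lower (-0.48 ± 0.14, adjusted p = 0.0167), a call lost without L. acidophilus replicate 3 (adjusted p = 0.0525) and without combination replicate 2 (0.0570). Against FK506 it was -0.41 ± 0.14 (adjusted p = 0.0545, not called), and it passed in 4 of 22 refits, without anti-CD3 replicate 1 (adjusted p = 0.0307) or 2 (0.0164), with DESeq2 (0.0391) and with the 6 libraries compared (0.0349). The table lists 3 pseudogenes of it, Fkbp1a-ps1, Fkbp1a-ps2 and Fkbp1a-ps3, which together held 3 to 12 counts per library, at most 0.0841% of the Fkbp1a count, and how reads shared with them were assigned is not given in the sources used here.

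**Figure D2:**
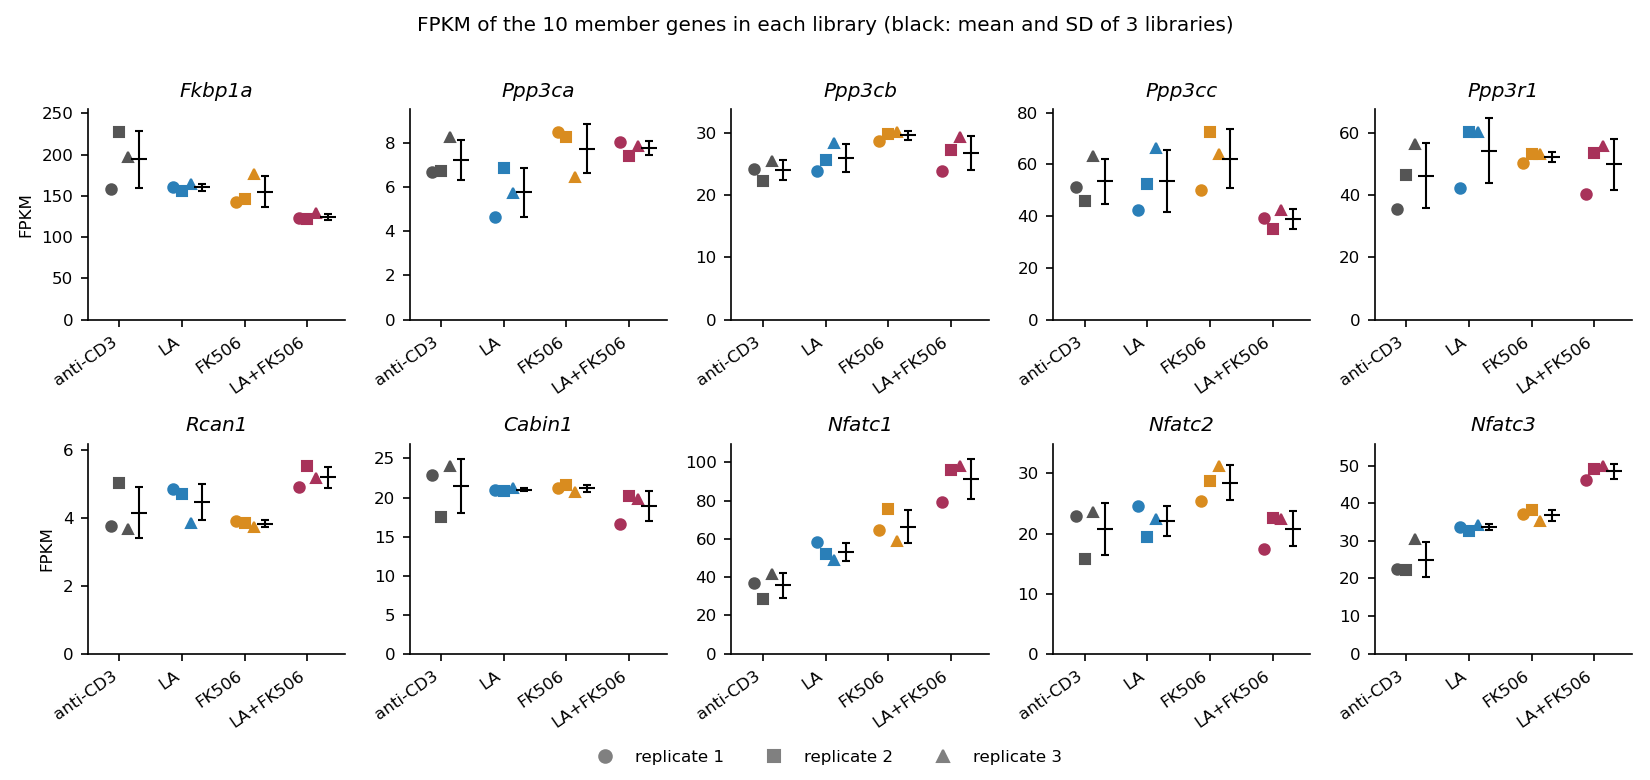
FPKM (vertical axes, from 0) of the 10 genes in each of the 12 libraries, with symbols for replicates 1 to 3 and the mean and SD of each group in black. Nfatc1 and Nfatc3 step upwards from anti-CD3 alone (means of 35.8 and 25.0) through each single agent to the combination (91.1 and 48.5), and Fkbp1a is lowest with the combination.

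The catalytic subunits of calcineurin are encoded by Ppp3ca (chr3:136669714-136937727) and Ppp3cb (chr14:20499364-20546573), both widely expressed, and Ppp3cc (chr14:70217864-70289536), best known from testis. On the per-length FPKM scale Ppp3cc was the highest of them in every library. It measured 51.2, 45.8 and 63.0 FPKM with anti-CD3 alone, 42.5, 52.2 and 66.3 with L. acidophilus, 50.2, 72.5 and 63.9 with FK506, and 39.4, 34.8 and 42.5 with the combination. The combination libraries again lay at the bottom, the highest of them (42.47) barely under the lowest with L. acidophilus (42.48), and the other groups overlapped each other. Ppp3cb lay between 22.3 and 30.1 FPKM and Ppp3ca between 4.68 and 8.52 over the 12 libraries.

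Ppp3cc was lower with the combination than with FK506 (log2 fold change -0.56 ± 0.14 SE, adjusted p = 0.0178). This call was lost without FK506 replicate 2 or 3 and without combination replicate 2 or 3 (adjusted p from 0.0582 to 0.0654). Against anti-CD3 alone the change was -0.38 ± 0.14 (adjusted p = 0.0474), and it was lost in 14 of 22 refits: without anti-CD3 replicate 1 or 3, L. acidophilus replicate 2, FK506 replicate 3 or any combination library (adjusted p from 0.0632 to 0.129), without scaling factors (-0.18, adjusted p = 0.368), and with RLE size factors, DESeq2, no filter, the replicate block and both limma fits (adjusted p from 0.0515 to 0.0821). The count behind each FPKM unit, relative to the median gene of the same library, was 1.17 ± 0.11 for Ppp3cc with anti-CD3 alone, 1.06 ± 0.07 with L. acidophilus, 1.22 ± 0.05 with FK506 and 1.41 ± 0.11 with the combination (SD, n = 3), so its counts and its FPKM did not move in step. For Ppp3ca the same ratio stayed between 1.83 and 1.85 in all groups.

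Ppp3cb and Ppp3ca passed in no comparison as fitted to all libraries. With FK506, Ppp3cb was 29.6 ± 0.75 FPKM against 24.0 ± 1.60 with anti-CD3 alone, and these groups did not overlap, with a log2 fold change of 0.21 ± 0.08 (adjusted p = 0.0958) that passed in 4 of 22 refits, DESeq2 among them (0.22, adjusted p = 0.0278). Ppp3ca was 5.77 ± 1.10 FPKM with L. acidophilus against 7.26 ± 0.91 with anti-CD3 alone, a change of -0.39 ± 0.14 (adjusted p = 0.232). In the combination against L. acidophilus it was 0.30 ± 0.14 (adjusted p = 0.137), and this passed in 3 of 22 refits, among them without L. acidophilus replicate 2 (0.44, adjusted p = 0.0481). With the combination against anti-CD3 alone, the approximate 95% interval of the log2 fold change was -0.10 to 0.22 for Ppp3cb and -0.38 to 0.18 for Ppp3ca, and without scaling factors Ppp3cb passed in this comparison (0.27, adjusted p = 0.0379).

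The regulatory subunit, calcineurin B, is encoded by Ppp3r1 (chr11:17159298-17200380). Its level was 35.7, 46.7 and 56.7 FPKM with anti-CD3 alone, 42.3, 60.4 and 60.5 with L. acidophilus, 50.4, 53.2 and 53.3 with FK506, and 40.6, 53.5 and 55.8 with the combination. All groups overlapped, and replicate 1 was the lowest library of each group. No comparison passed, with log2 fold changes between -0.25 and 0.16, and for the combination against anti-CD3 alone the approximate 95% interval was -0.43 to 0.24.

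Of the inhibitors, Rcan1 (calcipressin, chr16:92391951-92466169) encodes a feedback inhibitor that binds calcineurin and is itself induced through NFAT. It was the least abundant of the 10 genes. Its level was 3.76, 5.03 and 3.69 FPKM with anti-CD3 alone, 4.85, 4.70 and 3.86 with L. acidophilus, 3.92, 3.86 and 3.72 with FK506, and 4.91, 5.53 and 5.18 with the combination. The combination lay above both FK506 and L. acidophilus without overlap but overlapped anti-CD3 alone, whose replicate 2 was high. The log2 fold change of the combination against FK506 was 0.35 ± 0.16 (adjusted p = 0.143), and that of FK506 against anti-CD3 alone was -0.25 ± 0.16 (adjusted p = 0.290, approximate 95% interval -0.56 to 0.06). Rcan1 passed in no comparison under any alternative tried, and the counts do not separate its long transcript from the one that starts at the internal window printed above.

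Cabin1 (chr10:75646110-75764357) encodes a large nuclear protein that binds and inhibits calcineurin. It measured 22.9, 17.5 and 24.0 FPKM with anti-CD3 alone, 16.7, 20.3 and 19.8 with the combination, 20.7 to 21.6 with FK506 and 20.9 to 21.2 with L. acidophilus. In FPKM the combination overlapped anti-CD3 alone but lay below both single agents. On the counts it was lower with the combination than with anti-CD3 alone (log2 fold change -0.34 ± 0.11 SE, adjusted p = 0.0261). The call was lost in 10 of 22 refits, among them without anti-CD3 replicate 1 or 3, FK506 replicate 3, or combination replicate 1 or 3 (adjusted p from 0.0528 to 0.0907), and without scaling factors (-0.14, adjusted p = 0.422). In the combination against L. acidophilus it was -0.26 ± 0.11 (adjusted p = 0.0904), and it passed without anti-CD3 replicate 2 (adjusted p = 0.0286).

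Of the 10 genes, Nfatc1 had the widest range of group means. Nfatc1, which encodes the NFAT factor that is itself induced by T-cell activation, measured 36.9, 28.8 and 41.8 FPKM with anti-CD3 alone, 58.3, 51.9 and 49.0 with L. acidophilus, 64.8, 75.5 and 58.9 with FK506, and 79.1, 96.2 and 97.98 with the combination. Every treated library lay above every library with anti-CD3 alone, and every combination library above every library with a single agent, whereas the ranges of the single agents met closely (49.0 to 58.3 with L. acidophilus and 58.9 to 75.5 with FK506). Means were 35.8 ± 6.55, 53.1 ± 4.73, 66.4 ± 8.43 and 91.1 ± 10.4 FPKM (SD, n = 3).

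On the counts, Nfatc1 was 2.25-fold higher with the combination than with anti-CD3 alone (log2 fold change 1.17 ± 0.13 SE, adjusted p = 4.3e-05) and 1.73-fold higher with FK506 (0.79 ± 0.13, adjusted p = 0.00195). It was 1.59-fold higher with the combination than with L. acidophilus (0.67 ± 0.13, adjusted p = 0.00226). These 3 calls held in all 22 refits, only the first being at least 2-fold, and without anti-CD3 replicate 2 the first change was 1.05. With L. acidophilus the change was 0.50 ± 0.13 (adjusted p = 0.116), which edgeR did not call and DESeq2 did (0.49, adjusted p = 0.0167). In the combination against FK506 it was 0.38 ± 0.13 (adjusted p = 0.0615), and this passed in 7 of 22 refits: with DESeq2 (0.42, adjusted p = 0.0156), RLE size factors (0.0464), no scaling factors (0.0446) and filterByExpr, a stricter filter on counts (0.0422), and without anti-CD3 replicate 2 (adjusted p = 0.0249), without FK506 replicate 2 (0.0445) and without combination replicate 1 (0.0484).

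Nfatc3 (chr8:106058818-106130537) encodes an NFAT factor expressed in thymocytes and mature T cells. It measured 22.5, 22.1 and 30.4 FPKM with anti-CD3 alone, 33.8, 32.7 and 34.3 with L. acidophilus, 37.1, 38.2 and 35.2 with FK506, and 46.3, 49.2 and 49.9 with the combination. The groups stood in the same order as for Nfatc1 and did not overlap. It was higher with FK506 (log2 fold change 0.45 ± 0.10 SE, adjusted p = 0.00839) and with the combination (0.76 ± 0.10, adjusted p = 0.000103) than with anti-CD3 alone, and higher with the combination than with L. acidophilus (0.40 ± 0.10, adjusted p = 0.00780). The combination calls against these groups held in all 22 refits, and neither change reached 2-fold. The FK506 call held with each library left out in turn but was lost when edgeR was fitted to the 6 libraries compared (adjusted p = 0.0643) and with replicates 2 and 3 alone (0.0743).

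Nfatc3 was also higher with the combination than with FK506 (0.31 ± 0.10, adjusted p = 0.0481). This call was lost in 11 of 22 refits. Of the libraries left out in turn, it held only without an anti-CD3 library (adjusted p from 0.0613 to 0.159 without any other). With L. acidophilus against anti-CD3 alone the change was 0.35 ± 0.10 (adjusted p = 0.135), and it passed with DESeq2 (adjusted p = 0.0174) and without anti-CD3 replicate 3 (0.47, adjusted p = 0.0271).

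Nfatc2 (chr2:168476410-168601657) encodes the NFAT factor that resting T cells already hold and followed another course. It measured 22.9, 15.7 and 23.5 FPKM with anti-CD3 alone, 24.5, 19.5 and 22.4 with L. acidophilus, 25.5, 28.8 and 31.2 with FK506, and 17.4, 22.6 and 22.3 with the combination. The FK506 libraries were the highest of the 12, and the other groups overlapped. It was lower with the combination than with FK506 (log2 fold change -0.56 ± 0.15 SE, adjusted p = 0.0261), a call lost in 9 of 22 refits, among them without FK506 replicate 2 or 3 or any combination library (adjusted p from 0.0504 to 0.106) and without scaling factors (-0.46, adjusted p = 0.0795). With FK506 against anti-CD3 alone it was 0.36 ± 0.15 (adjusted p = 0.130).

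Whether both agents together gave more or less than their separate log2 changes added up was tested as an interaction, which none of the 10 genes passed, where 1.35% of all genes departed upwards and 3% downwards. At an unadjusted p under 0.05 edgeR had 1 of the 10, Nfatc2, and 19.6% of all genes. The departure of Nfatc2 was -0.57 ± 0.22 (adjusted p = 0.170), and DESeq2 called 0 of the 10. It was -0.12 for Nfatc1 (approximate 95% interval -0.48 to 0.24), -0.05 for Nfatc3 (-0.32 to 0.22) and -0.06 for Fkbp1a (-0.44 to 0.32).

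Since FPKM is per length, the levels of related genes can be set beside each other. The summed level of the NFAT factors was 81.5 ± 14.5 FPKM with anti-CD3 alone, 109 ± 6.81 with L. acidophilus, 132 ± 9.38 with FK506 and 160 ± 15.2 with the combination (SD, n = 3). Nfatc1 made up 43.9% ± 0.85, 48.7% ± 2.03, 50.3% ± 3.05 and 56.8% ± 1.17 of it, and Nfatc2 25.3% ± 2.203, 20.3% ± 1.37, 21.7% ± 2.78 and 12.9% ± 0.65. The share of Nfatc1 with the combination lay above that of every other library and the share of Nfatc2 below it, while Nfatc3 held 30.8% ± 3.05 with anti-CD3 alone and 30.3% ± 1.80 with the combination. For Nfatc1 and Nfatc2 the two-sided exact permutation test of the combination against anti-CD3 alone gave p = 0.1, the smallest that 3 against 3 can give. The same p came for Nfatc1 with each single agent and for Nfatc2 with L. acidophilus. This test could not go under 0.05 and does not set the combination apart from them.

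Of the catalytic subunits' summed level, Ppp3cc made up 62.9% ± 2.02 with anti-CD3 alone, 62.5% ± 3.21 with L. acidophilus, 62.2% ± 4.24 with FK506 and 52.9% ± 2.64 with the combination (SD, n = 3), and Ppp3cb made up 28.5% ± 1.94 with anti-CD3 alone and 36.4% ± 2.92 with the combination. The combination was again apart from anti-CD3 alone with the smallest p that the exact permutation test allows (p = 0.1). The summed level itself was 84.6 ± 11.2, 85.4 ± 14.6, 99.5 ± 11.6 and 73.5 ± 5.43 FPKM. The count per FPKM unit of Ppp3cc differed between groups, so its share was also taken from counts. It was then 59.33% with anti-CD3 alone, 59.74% with FK506, 56.79% with L. acidophilus and 52.68% with the combination. On this scale the L. acidophilus libraries (53.95% to 59.51%) overlapped those of the combination (51.75% to 54.3%).

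**Figure D3:**
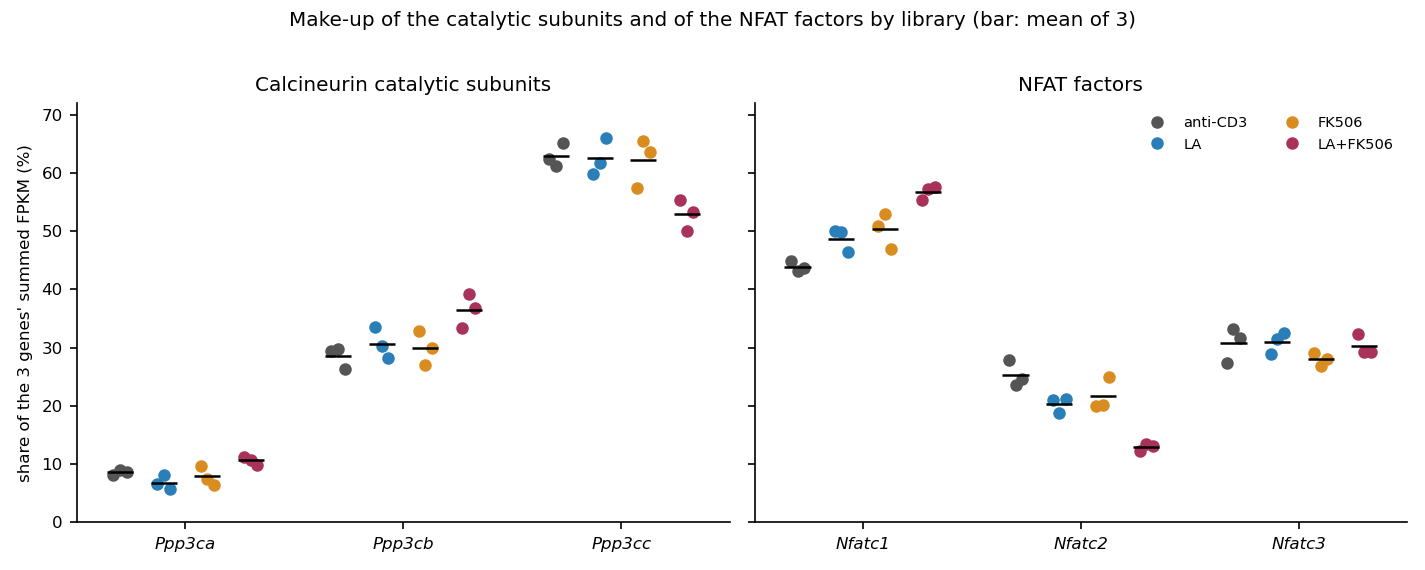
Share (vertical axis, % of the summed FPKM) of each catalytic subunit (left) and each NFAT factor (right) in every library, with a bar at the mean of 3. With the combination, Ppp3cc and Nfatc2 hold smaller shares (means of 52.9% and 12.9%) and Nfatc1 a larger one (56.8%) than in the other groups.

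Over the 12 libraries, library-scaled log2 counts of Nfatc1 and Nfatc3 moved together (Pearson r = 0.956) and opposite to Fkbp1a (r = -0.930 and -0.878). These are descriptions over libraries that share 4 treatments and their depths. Of 12211 other genes with a mean of at least 1 FPKM, the 5 most like Nfatc1 were Setd1b (r = 0.992), Brpf3 (0.988), Tulp4 (0.987), Cux1 (0.986) and Wdr37 (0.985). The 5 most like Fkbp1a were Fpgs (0.976), Kars (0.975), Gm3756 (0.971), Tmed10-ps (0.968) and Psmd8 (0.967).

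Upstream of calcineurin, 13 genes of calcium release, store-operated entry and calmodulin were tested. With the combination 5 were higher and 3 lower than with anti-CD3 alone, where 21.5% of all genes were higher and 21.8% lower (6 and 1 without scaling factors, where the median log2 fold change went from 0.00 to 0.20), and with FK506 2 and 1, where 10.2% of all genes were higher and 8.81% lower. The calcium sensor Stim2 was higher with FK506 (log2 fold change 0.61 ± 0.12 SE, adjusted p = 0.00519) and with the combination (1.07 ± 0.12, adjusted p = 4.51e-05), and so was the channel gene Orai2 (0.62 ± 0.12, adjusted p = 0.00519, and 1.23 ± 0.12, adjusted p = 2.22e-05). Orai1, which encodes the main pore subunit of the channel, was lower with both (-0.98 ± 0.27, adjusted p = 0.0252, and -1.01 ± 0.27, adjusted p = 0.00973). Orai1 measured 37.4, 93.2 and 53.2 FPKM with anti-CD3 alone, against 34.6 to 36.7 with the combination, and anti-CD3 replicate 2 was the highest library. Without that library its change was -0.51 with FK506 (adjusted p = 0.0695, no longer passing) and -0.54 with the combination (adjusted p = 0.0259), and 0 genes of the list were lower with FK506 and 2 with the combination, and the list's median with the combination was 0.11.

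Of 12 genes for NFAT kinases, nuclear export and scaffolds, 4 were higher and 5 lower with the combination than with anti-CD3 alone, beside the same 21.5% and 21.8% of all genes (6 and 4 without scaling factors, where the median log2 fold change went from -0.04 to 0.16), and 3 and 1 with FK506, beside 10.2% and 8.81%. The kinase genes Dyrk2 (1.39 ± 0.14, adjusted p = 2.12e-05) and Dyrk1b (1.68 ± 0.19, adjusted p = 3.86e-05) were higher on the log2 scale with the combination. The DYRK kinases prime NFAT for its return to the cytoplasm. Dyrk2 measured 4.49, 3.25 and 4.99 FPKM with anti-CD3 alone and 13.8, 12.2 and 12.5 with the combination. Homer3, which encodes a scaffold that competes with calcineurin for NFAT, was lower (-1.25 ± 0.19, adjusted p = 0.000324). Without anti-CD3 replicate 2 the counts with the combination were 3 higher and 5 lower, and with FK506 3 and 0.

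Of 9 other transcription regulators that calcineurin dephosphorylates, 6 were higher and 0 lower with the combination (21.5% and 21.8% of all genes), and 4 and 0 with FK506 (5 and 4 higher without anti-CD3 replicate 2, and 7 with the combination without scaling factors). Their median log2 fold change was 0.56 with the combination, beside 0.02 over all genes. Crtc3, a coactivator of CREB, measured 4.99, 4.32 and 5.64 FPKM with anti-CD3 alone and 15.1, 13.6 and 13.1 with the combination (1.28 ± 0.13 SE, adjusted p = 2.10e-05). Crtc1 (1.07 ± 0.16, adjusted p = 0.000290) and the MADS-box factor gene Mef2a (0.85 ± 0.16, adjusted p = 0.00103) were also higher. Mef2c, abundant in B cells as well, was higher with FK506 (2.91 ± 0.35, adjusted p = 0.000328), with a median of 23.5 FPKM against 1.98 to 4.06 with anti-CD3 alone, where the B-cell marker Ms4a1 measured 26.1 to 61.2 against 2.30 to 2.88 FPKM. With the combination Mef2c measured 3.17, 7.72 and 7.64 FPKM, where Ms4a1 measured 19.6 to 25.9. Its log2 fold change there was 0.89 (adjusted p = 0.0443), a call lost without anti-CD3 replicate 2 (0.69, adjusted p = 0.147).

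Among 13 further FK506-binding protein genes, 2 were higher and 7 lower with the combination, beside 21.5% and 21.8% of all genes (2 and 6 without scaling factors), and 2 and 1 with FK506, beside 10.2% and 8.81%. Their median log2 fold changes were -0.72 and -0.58, beside 0.02 and 0.00 over all genes, and the second was -0.37 without anti-CD3 replicate 2. The FKBP gene Fkbp15 was higher with FK506 (0.36 ± 0.08 SE, adjusted p = 0.0119), at 16.9 to 19.8 FPKM against 12.4 to 14.4 with anti-CD3 alone. The chaperone partner Fkbp4 was lower with the combination (-1.65 ± 0.28 SE, adjusted p = 0.000649), at 27.4 to 46.5 FPKM against 65.5 to 118 with anti-CD3 alone. Fkbp2 (-1.21 ± 0.23, adjusted p = 0.00134) and Fkbp11 (-2.61 ± 0.49, adjusted p = 0.00118), both of the secretory pathway, were also lower. Fkbp8 also passed (-0.78 ± 0.28, adjusted p = 0.0390), at 118.7, 278.5 and 110.4 FPKM with anti-CD3 alone against 103.8 to 125 with the combination, and without that library the change was -0.22 (adjusted p = 0.125). Without anti-CD3 replicate 2, 5 were lower with the combination and 0 with FK506. Of the FKBP genes, Fkbp1b, Fkbp9, Fkbp10 and Fkbp14 stayed under 1 FPKM in every library. Of 5 remaining calcineurin, calcipressin and NFAT family genes, 1 was higher and 2 lower with the combination, beside 21.5% and 21.8% of all genes. The counts were 2 and 1 without scaling factors and 1 and 1 without anti-CD3 replicate 2. Among these 5, Akap5 and Nfatc4 were near the floor, at no more than 0.1635 and 0.0593 FPKM in any library. Rcan3, a relative of Rcan1, was lower with FK506 (-0.51 ± 0.12, adjusted p = 0.0114) and with the combination (-0.49 ± 0.12, adjusted p = 0.00568), and without scaling factors neither passed (-0.40, adjusted p = 0.0515, and -0.28, adjusted p = 0.105).

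Downstream, 23 genes whose induction in activated T cells is known to need calcineurin and NFAT were tested. With FK506 1 was higher and 10 lower than with anti-CD3 alone, beside 10.2% and 8.81% of all genes, and with the combination 3 and 12, beside 21.5% and 21.8%. The median log2 fold changes were -0.75 and -1.04, beside 0.00 and 0.02 over all genes. Without anti-CD3 replicate 2 the counts were 0 and 9 with FK506 and 4 and 11 with the combination, and without scaling factors they were also 4 and 11 with the combination.

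The largest changes that passed in this list were falls, mostly of cytokine genes. Il3, which encodes a haematopoietic growth factor, measured 15.4, 15.9 and 8.98 FPKM with anti-CD3 alone, 1.32, 0.862 and 1.94 with FK506 and 0.381, 0.330 and 0.171 with the combination (log2 fold changes -3.39 ± 0.38 SE, adjusted p = 0.000247, and -5.63 ± 0.44, adjusted p = 8.00e-06). Il13, a type 2 cytokine gene, measured 364, 241 and 127 FPKM with anti-CD3 alone and 2.14, 2.34 and 2.92 with the combination (-6.85 ± 0.57, adjusted p = 9.37e-06). Il21, a helper cytokine gene, measured 57.4, 30.0 and 40.5 FPKM with anti-CD3 alone, 8.10, 6.78 and 16.6 with FK506 and 0.942, 1.11 and 1.04 with the combination (-2.13 ± 0.40, adjusted p = 0.00386, and -5.56 ± 0.48, adjusted p = 9.97e-06). For each of these genes the combination lay below every library with anti-CD3 alone, and so did the FK506 libraries, with Il13 at 48.9 to 90.4 FPKM (-1.98 ± 0.45, adjusted p = 0.0104). Csf2 (-3.14 ± 0.69, adjusted p = 0.00854) and the chemokine gene Ccl4 (-2.07 ± 0.28, adjusted p = 0.000600) were lower with FK506, and Il5 with the combination (-4.58 ± 0.71, adjusted p = 0.000316). Not every gene of the list fell. Tnf measured 13.8 to 15.2 FPKM with anti-CD3 alone and 24.3 to 29.5 with the combination. Nr4a1 measured 23.1 to 58.9 and 116.2 to 141.8, and Ctla4 88.5 to 105.6 and 185.7 to 209.

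**Figure D4:**
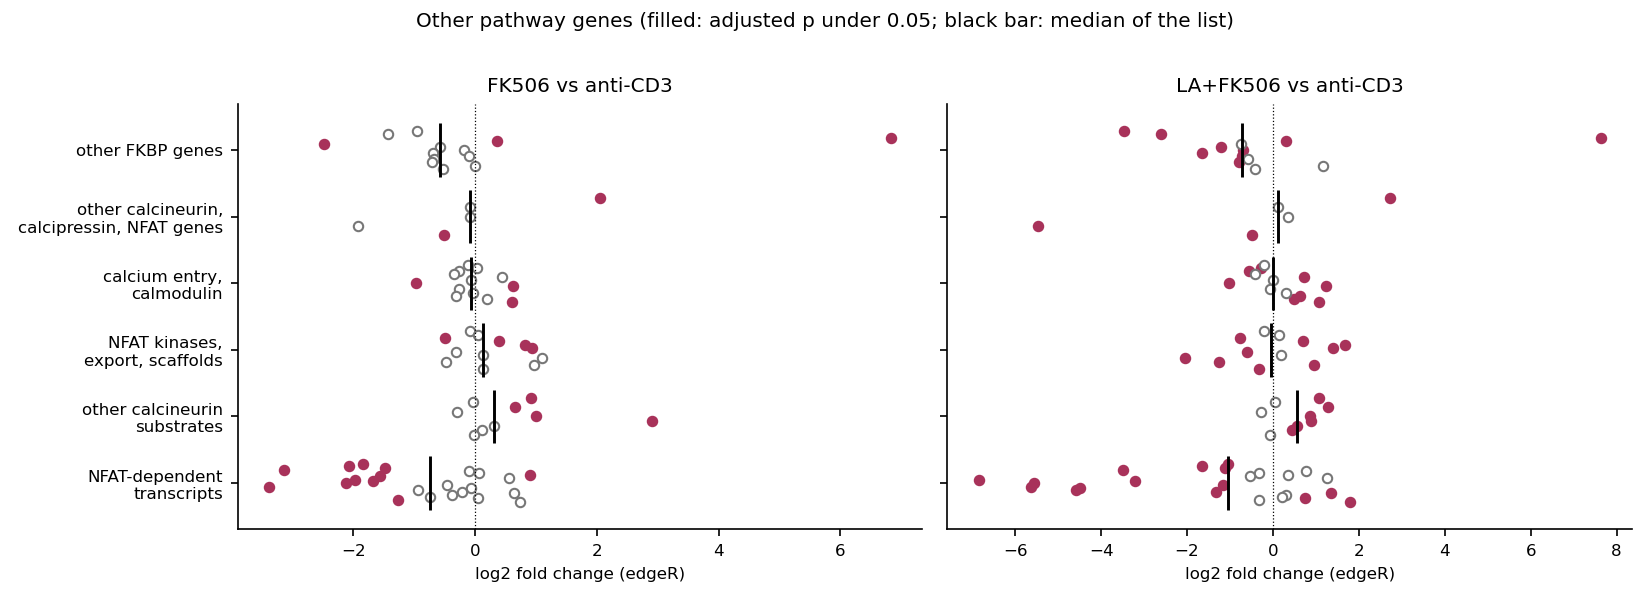
Log2 fold changes (horizontal axis, edgeR) of each tested gene of 6 pathway lists, with FK506 (left) and with the combination (right) against anti-CD3 alone, filled where the adjusted p was under 0.05, with a bar at each list's median. The NFAT-dependent transcripts reach furthest to the left (medians of -0.75 and -1.04) and the other calcineurin substrates have no filled point left of 0.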

How the data were processed

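Groups and replicate numbers of the 12 libraries were taken from the labels. The submitters' processing notes name bcl2fastq 2.20.0, Trimmomatic, HISAT2 2.1.0, StringTie 2.1.3b and the builds mm10 and GRCm38. The counting step is not given in the sources used here, and the instrument is named differently in the study's text and in the series description. The authors deposited whole-number read counts per gene, not normalized, beside FPKM values deposited by the authors per transcript length and library size. The study's methods name quantile normalization, but total FPKM differed between libraries. The 12 columns of TPM were not used.

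The 10 genes and all lists were chosen with earlier results of these data known. Counts were tested with edgeR 4.0.16 in R 4.3.3 (quasi-likelihood, TMM factors, genes above 0 in at least 3 libraries, 1 mean per group over all 12 libraries), with Benjamini-Hochberg adjustment over the 23585 genes tested and a threshold of 0.05. The script was tested on simulated data. The SE was taken as the absolute log2 fold change over the root of the F statistic. No gene set was tested, and markers and lists are given by counts. Named were all 10 genes and, per list and comparison, up to 4 genes with the largest change among those passing with a mean of at least 1 FPKM. Values of Cd8a and Ms4a1, of Il13 with FK506, and of Tnf, Nr4a1 and Ctla4 with the combination were chosen after they were seen.

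Same-numbered libraries deviated together in every pair (correlation over 0.1 across 12221 genes) for L. acidophilus against anti-CD3 alone (0.227 to 0.471) and for the combination against L. acidophilus (0.142 to 0.24). By this rule the labels' numbers were taken to pair the libraries of these 2 comparisons. The other comparisons did not meet it, which does not show that their libraries were unpaired. All values given are from the fit without the block unless said otherwise. The replicate block changed no call of the 10 genes in the 2 comparisons taken as paired.

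The alternatives were other or no scaling factors, DESeq2 1.42.0, other filters, the 6 libraries compared, the replicate block, limma 3.58.1 on log2(FPKM + 1) and log2(FPKM + 0.1), an at least 2-fold change, replicates 2 and 3 alone, and each library left out. List counts and named list genes under other scalings and without anti-CD3 replicate 2 were added after seeing the data. Exact tests used scipy 1.17.1, and figures matplotlib 3.10.9. Coordinates and promoters are from RefSeq GRCm38.p6.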

Additional observations from a re-analysis of the deposited data

Results flagged for a closer look

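For 6 of the 75 genes tested over the 6 pathway lists (8.0%, beside 4.35% of all genes), the interaction of both agents passed edgeR's test, so that the log2 change with the combination differed from the separate changes added up. The difference was -4.63 ± 0.89 SE for Il4 (adjusted p = 0.0173), -3.21 ± 0.57 for Il21 (adjusted p = 0.0130) and -3.07 ± 0.65 for Il13 (adjusted p = 0.0238), so these cytokine genes were lower with the combination than the sum. It was -0.59 ± 0.14 for Xpo1, which encodes the nuclear exportin of NFAT (adjusted p = 0.0401), and this did not pass with RLE size factors (-0.54, adjusted p = 0.0506) or without scaling factors (-0.56, adjusted p = 0.0675). It was 0.85 ± 0.21 for Saraf, a regulator of store-operated calcium entry (adjusted p = 0.0426), and 1.66 ± 0.34 for the costimulatory receptor gene Tnfrsf9 (adjusted p = 0.0219). Il4 measured 20.9 to 60.2 FPKM with anti-CD3 alone, 1.27 to 2.23 with the combination, 23.4 to 49.5 with FK506 and 17.7 to 91.0 with L. acidophilus.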

How the results depend on the processing

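Of 1310 alternative values of the 10 genes, 1170 kept direction and side of the threshold, 48 changed sign without passing in either setting, 69 lost a call and 23 gained one. The cause was not tested for the changes below. With DESeq2, 2 of the 10 genes passed with L. acidophilus and 5 in the combination against FK506, and of all genes 1112 passed with L. acidophilus and 2380 in the interaction. With L. acidophilus, 115 genes passed with no filter, 126 with filterByExpr, 0 with the 6 libraries compared alone, 86 and 94 with limma on log2(FPKM + 1) and log2(FPKM + 0.1), and 3 with replicates 2 and 3 alone, against 54. With FK506, 2964 genes and 1 of the 10 passed with the 6 libraries alone. With limma, 3 of the 10 passed with the combination at either pseudocount, against 5 of the 10 and 43.3% of all genes with edgeR. How many of all genes passed with limma in that comparison is not given here. In the interaction, 1675 genes passed with limma on log2(FPKM + 1).

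With the replicate block, 101 genes passed with L. acidophilus and 1578 in the interaction (1025 without it), and Ppp3cc lost its call with the combination against anti-CD3 alone (adjusted p = 0.0515). In that comparison the same-numbered libraries did not all meet the pairing rule (correlations of -0.077 to 0.279). This does not show that they were unpaired, so the blocked fit cannot be set aside. The block changed no other call of the 10 genes.

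Asking for an at least 2-fold change left 0 of the 10 with FK506, 1 with the combination, 0 against FK506 and 0 against L. acidophilus, and 2491, 5797, 1754 and 3910 of all genes, with 559 in the interaction. With replicates 2 and 3 alone, 1 of the 10 passed with FK506, 1 in the combination against FK506, and 474 genes in the interaction. From counts instead of FPKM, the share of Ppp3cc was 59.33% with anti-CD3 alone, 56.79% with L. acidophilus, 59.74% with FK506 and 52.68% with the combination, and that of Nfatc1 36.14% with anti-CD3 alone, 41.09% with L. acidophilus, 42.38% with FK506 and 49.49% with the combination.

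With each library left out in turn, 0 to 1 of the 10 passed with L. acidophilus (1 to 391 of all genes), 2 to 3 with FK506 (2495 to 4747), 3 to 5 with the combination (8517 to 10198), 0 to 5 in the combination against FK506 (2343 to 5523) and 2 to 4 against L. acidophilus (5946 to 8842), with 332 to 1464 genes in the interaction. The lowest counts of all genes came without L. acidophilus replicate 1 or 2 with L. acidophilus, FK506 replicate 2 with FK506 and FK506 replicate 3 in the combination against FK506. Of 12 libraries left out in turn, 10 ended the call of Fkbp1a with FK506 and 9 that of Nfatc3 in the combination against FK506, and the calls of Ppp3cc, Cabin1 and Nfatc2 were each lost without at least 4.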
